A study of Mus musculus with 4 samples.

Results

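Expression of 36 DNA replication and S phase genes was examined in mammary tumors that formed with or without St6gal1. The genes were chosen by name: licensing and helicase factors, replication fork proteins, enzymes of nucleotide supply, regulators of the G1/S transition, and a few chromatin and repair factors made in S phase. On the array, 80 of 45037 probe sets carried exactly 1 of these symbols, and all 36 genes, of 18193 genes in all, had at least 1 probe set. Of the 80, 58 probe sets of 35 genes were bright enough to be tested, and 22 were not.

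Each of the 4 Affymetrix mouse expression arrays held RNA pooled from 3 mammary tumors, each from a different animal. All animals were female C57BL/6 mice carrying PyV-mT, the polyoma virus middle T oncogene. The null tumors came from St6gal1-/- mice and the wild-type tumors from their littermates, all at 110 days of age and 14 days after tumor onset. Per the series' design text, 1 null and 1 wild-type pool were compared in a first set and another pair in a second set, so each genotype had 2 pools and the ratio null over wild type was taken within each set. St6gal1 encodes a sialyltransferase that caps N-glycans with sialic acid in the alpha2-6 linkage. No source used here names the promoter that drives the oncogene.

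Before a cell copies its DNA, the origin recognition complex, CDC6 and CDT1 load the MCM helicase onto origins, and geminin keeps this from happening again after S phase has begun. CDC45, the GINS complex and MCM10 then turn the loaded helicase into a moving fork, where primase and the polymerases work with the PCNA clamp, its RFC loader, the flap nuclease FEN1 and DNA ligase. Many of these genes are transcribed at the G1/S transition under E2F factors, so their transcripts are widely used as markers of proliferating cells, in mammary tumors as elsewhere.

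The labels could not be checked on the targeted gene. The brighter probe set of St6gal1 read 2337 and 3642 in the null pools and 2330 and 2796 in the wild-type pools, a log2 ratio of 0.19 ± 0.16 (SE; limma adjusted p = 0.563), and the dimmer read from 475 to 548. That lies within the unspecific level, taken as 565, the highest value that 13 probe sets of Y-linked genes reached in these female mice. No source used here says which exons are missing from the null allele; probes outside them check nothing, and directions rest on the labels. Median intensities of the 4 arrays lay between 588 and 619. With 2 arrays of each genotype, the smallest two-sided p of an exact permutation test is 0.333.

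The called replication genes were all higher in the null pools. On the brightest tested probe set of each gene, 7 of 35 genes rose (20.0%, against 5.17% of all 11512 genes tested) and 0 fell (against 3.54%). A call is an adjusted p under 0.05 from limma's moderated test. The genes that rose were Rrm2, Tk1, Mcm3, Gmnn, Mcm5, Mcm7 and Pcna, by 1.28-fold to 1.75-fold. The median log2 ratio of the 35 genes was 0.34, or 1.27-fold, with 0.37 in set 1 and 0.27 in set 2, beside -0.0087, -0.011 and -0.0022 over all genes tested. At an unadjusted limma p under 0.05, 15 of the 35 genes passed, beside 2633 of all 11512 genes tested. A control signal also differed by genotype: the 3' probe set for 18S ribosomal RNA read 2600 and 835 in the null pools against 4222 and 910 in the wild-type ones, and the 5' probe set 4272 and 217 against 11503 and 486, the set 2 values of the latter being within the unspecific level. Its part in the result was not tested.

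These calls rest on the paired fit and on a spread shared across probe sets, since the fit has 1 residual degree of freedom of its own and 13.5 prior ones. Without the term for the set, or without the intensity trend in the spread, 0 of the 35 genes were called, as for all 22519 probe sets tested. The null or wild-type array of either set could be left out only together with the set term, so the 0 calls then found do not show the weight of a single array.

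In both sets 28 of the 35 genes had a log2 ratio above 0, which 31.6% of all genes tested also had. For 24 of the 35, both null arrays read above both wild-type arrays, beside 17.6% of all genes tested. Only Gins2 had both null arrays below both wild-type arrays. Gins2 and Rfc3 had ratios below 0 in both sets, and Mcm2, Fen1, Pole2, Prim1 and Orc1 had ratios of opposite sign. The log2 ratios of the 35 genes ran from -0.28 to 0.97.

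**Figure D1:**
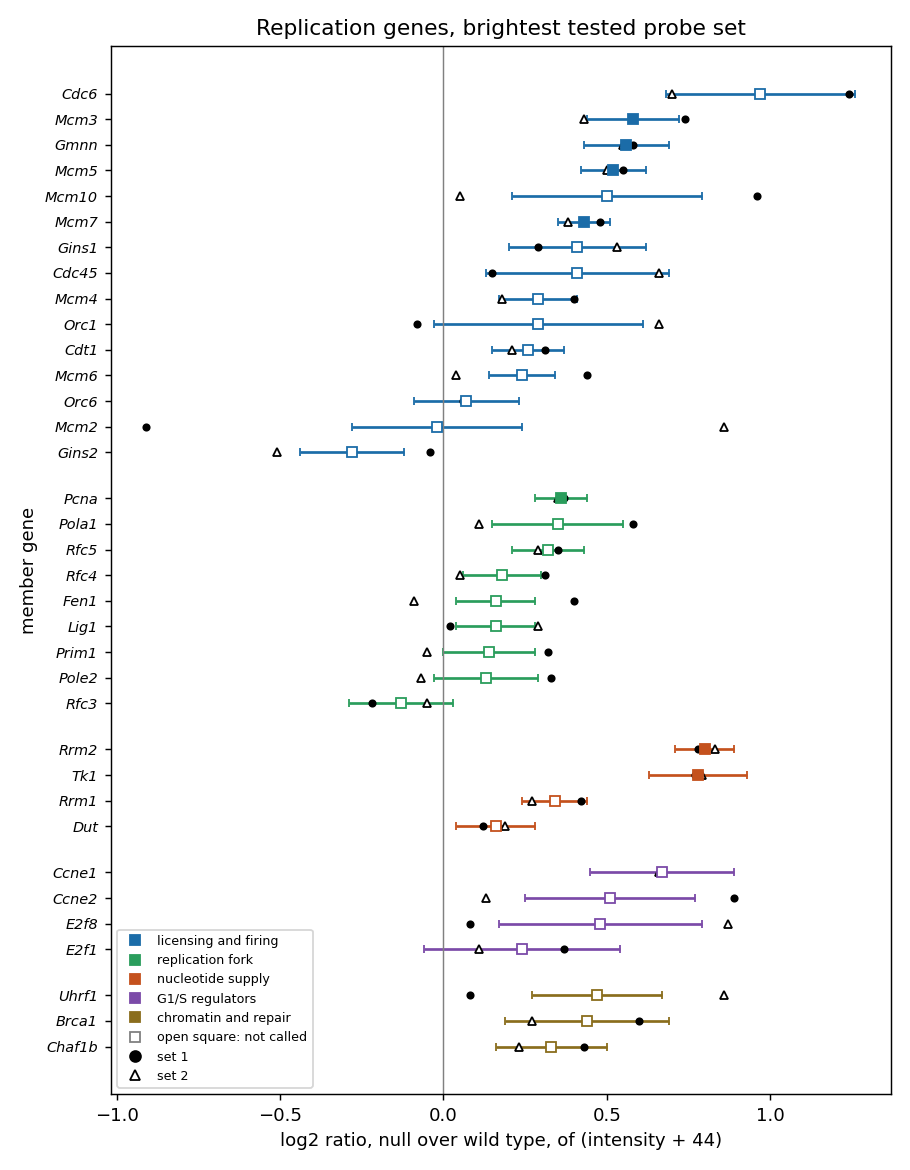
Log2 ratio of null over wild type (x axis, of intensity + 44) for the 35 tested replication genes, grouped by role. Squares give the limma estimate with its moderated standard error (2 pools of each genotype), filled where called, and the small symbols give the ratio in each set. The 7 filled squares lie between 0.36 and 0.80, and most other genes also lie to the right of 0.

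**Figure D2:**
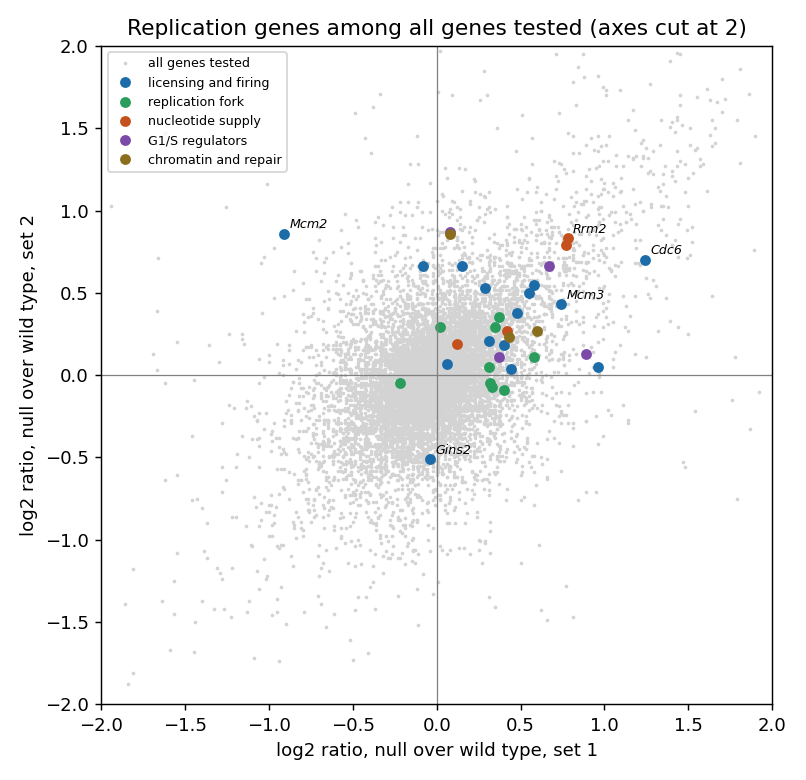
Log2 ratio of null over wild type in set 1 (x axis) and in set 2 (y axis), for the 35 replication genes (coloured by role) and all genes tested (grey; those beyond 2 on an axis are not drawn). Of the replication genes, 28 lie above 0 on both axes, while Mcm2 and 4 others had opposite signs in the 2 sets.

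The promoters of the called genes are shown because E2F factors are known to act on promoters of replication genes. Whether E2F factors had a part in these changes was not tested. RefSeq promoter windows (assembly GRCm38.p6), from 250 bases before to 50 after the start, were found for 31 of the 36 genes. Rrm2, Tk1, Mcm3, Mcm5, Mcm7 and Pcna are the called genes that had such a window, and Mcm7 had 2. The 180 bases before each start are printed on the gene's strand, with capitals marking an E2F-type word or a CCAAT box on either strand.
Rrm2, chr12:24708074-24708253, plus strand: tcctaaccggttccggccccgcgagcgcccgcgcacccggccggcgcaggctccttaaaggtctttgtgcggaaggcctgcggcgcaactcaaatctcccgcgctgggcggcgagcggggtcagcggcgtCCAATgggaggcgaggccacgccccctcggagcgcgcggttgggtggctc
Tk1, chr11:117826015-117826194, minus strand: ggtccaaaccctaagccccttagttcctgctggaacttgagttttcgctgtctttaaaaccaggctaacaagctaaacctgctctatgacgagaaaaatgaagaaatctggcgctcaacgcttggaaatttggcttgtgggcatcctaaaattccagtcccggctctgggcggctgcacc
Mcm3, chr1:20820313-20820492, minus strand: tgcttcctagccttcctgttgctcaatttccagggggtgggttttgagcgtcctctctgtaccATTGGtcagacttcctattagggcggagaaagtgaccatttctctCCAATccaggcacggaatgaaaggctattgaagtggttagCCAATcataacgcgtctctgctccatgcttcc
Mcm5, chr8:75109329-75109508, plus strand: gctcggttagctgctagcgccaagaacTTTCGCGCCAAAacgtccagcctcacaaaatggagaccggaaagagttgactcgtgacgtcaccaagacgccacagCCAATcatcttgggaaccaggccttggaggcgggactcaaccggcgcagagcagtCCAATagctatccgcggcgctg
Mcm7, first window, chr5:138171267-138171446, minus strand: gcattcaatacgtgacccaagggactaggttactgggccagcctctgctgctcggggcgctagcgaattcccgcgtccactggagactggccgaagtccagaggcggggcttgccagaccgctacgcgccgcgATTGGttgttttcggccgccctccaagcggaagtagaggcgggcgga
Mcm7, second window, chr5:138171884-138172063, minus strand: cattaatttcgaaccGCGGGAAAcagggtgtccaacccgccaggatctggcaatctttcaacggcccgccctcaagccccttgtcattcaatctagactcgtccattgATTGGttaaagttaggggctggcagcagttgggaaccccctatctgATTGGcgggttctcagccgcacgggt
Pcna, chr2:132253181-132253360, minus strand: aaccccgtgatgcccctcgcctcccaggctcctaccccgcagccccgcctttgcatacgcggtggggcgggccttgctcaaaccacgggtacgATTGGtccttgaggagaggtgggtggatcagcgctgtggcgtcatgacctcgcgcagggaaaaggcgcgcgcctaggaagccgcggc

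The E2F-type words searched were TTTCCCGC, TTTGGCGC, TTTCGCGC and TTTGCCGC, on both strands. A window of Mcm5 held TTTCGCGC and, overlapping it on the other strand, TTTGGCGC, which together read as the long run of capitals in its sequence. The second window of Mcm7 held TTTCCCGC on the other strand before the start and TTTCGCGC after it, and that of Mcm3 held its 2 words after the start, outside the bases shown. No E2F-type word was matched in the windows of Rrm2, Tk1 and Pcna, which says only that these letters are not there.

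Of the 31 genes with a window, 12 (38.7%) had an E2F-type word, as did 442 of 9311 tested genes with a window (4.75%) and 2.26% of all 32851 windows. The 12 were Mcm3, Mcm5, Mcm6, Mcm7, Cdc6, Cdt1, Orc1, Lig1, Pola1, Pole2, Rfc3 and Uhrf1. A CCAAT box was present for 18 of the 31 (58.1%), beside 42.8% of the tested genes and 37.4% of all windows. The E2F-type word was present for 3 of the 6 called genes and for 9 of the 24 tested but not called, so it was found on both sides of the threshold. In 5 of all windows an E2F-type word overlapped a CCAAT box. A match is a description of the letters and no evidence of binding in these tumors.

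Among the 15 licensing and helicase genes 4 rose (26.7%, beside 5.17% of all genes tested), Mcm3, Gmnn, Mcm5 and Mcm7. The median log2 ratio was 0.41. Mcm3, a subunit of the MCM helicase, read 5153 and 3747 in the null pools of sets 1 and 2 and 3066 and 2774 in the wild-type pools. Both null values lie above both wild-type values, with the widest gap in set 1. Mcm3 rose 1.5-fold, by 0.58 ± 0.14 (SE) on the log2 scale, with a limma adjusted p of 0.0174. Every SE here is limma's moderated SE, with 2 pools of each genotype. Such an SE rests mostly on the spread shared across probe sets, and little on the gap between a gene's own 2 sets. Without the null array of set 1, in a fit without the set term, the ratio of Mcm3 was 0.36.

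Mcm5, another helicase subunit, read 9305 and 8850 in the null pools and 6355 and 6239 in the wild-type pools. The groups did not overlap, and the pools of each genotype lay close together across the sets. Mcm5 rose 1.44-fold (log2 0.52 ± 0.10, limma adjusted p = 0.00366). Mcm7 read 22473 and 27118 in the null pools and 16112 and 20845 in the wild-type pools. Again the groups did not overlap, although the null pool of set 1 was only a little above the wild-type pool of set 2. The rise was 1.35-fold (log2 0.43 ± 0.08, limma adjusted p = 0.00485), and without the wild-type array of set 1 and the set term the log2 ratio was 0.24.

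Gmnn, which encodes geminin, the inhibitor of CDT1, read 3846 and 4784 in the null pools and 2566 and 3253 in the wild-type pools. Each null pool was above both wild-type pools. Gmnn rose 1.48-fold (log2 0.56 ± 0.13, limma adjusted p = 0.0174). Cdt1, the licensing factor that geminin blocks, had a log2 ratio of 0.26 ± 0.11 on its brighter probe set and 0.20 ± 0.19 on the other, neither of them called.

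Cdc6, which loads the helicase together with CDT1, had the highest log2 ratio of the 35 genes but just missed the threshold. It read 1467 and 1057 in the null pools and 594 and 632 in the wild-type pools, so the groups did not overlap. Both wild-type values lie barely above the unspecific level of 565, so the size of the ratio, and its place as the highest, rest in part on values close to that level. The log2 ratio was 0.97 ± 0.29, with a limma adjusted p of 0.0533. With a pseudocount of 176 in place of 44 the adjusted p from limma was 0.0443, and with no filter on dim probe sets 0.146.

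Mcm2 is the clearest case of a gene whose probe sets and sets disagreed. Its brighter probe set read 4500 and 4699 in the null pools, and 8471 and 2575 in the wild-type pools of sets 1 and 2. The wild-type arrays thus lay on either side of both null arrays, and the log2 ratio was -0.91 in set 1 and 0.86 in set 2, which gave -0.02 ± 0.26. Fitted without the set term, it was 0.83 without the wild-type array of set 1 and -0.88 without that of set 2. The other probe set read 4167 and 4199 in the null pools and 3306 and 2977 in the wild-type pools. There the groups did not overlap, and the log2 ratio of 0.41 ± 0.13 had a limma adjusted p of 0.0812.

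Mcm4 was called on 1 of its 2 tested probe sets. The dimmer probe set read 5125 and 5110 in the null pools against 3775 and 3018 in the wild-type pools, a log2 ratio of 0.59 ± 0.13 with a limma adjusted p of 0.0105. The brighter read 6348 and 5042 against 4798 and 4452, also without overlap, with a ratio of 0.29 ± 0.12 and a limma adjusted p of 0.166. Mcm6 completes the helicase ring. Its 2 tested probe sets had log2 ratios of 0.24 ± 0.10 and 0.32 ± 0.10, and on the brighter the ratio was 0.44 in set 1 and 0.04 in set 2.

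Probe sets of the called helicase genes also differed in size of change. The other 4 tested probe sets of Mcm3 had log2 ratios from 0.17 to 0.46, the other 3 of Mcm7 from 0.29 to 0.31, and the second of Mcm5 0.24. None of these 8 was called, and all had the sign of the called one. Of the 11 called probe sets of the replication genes, 4 have a name ending in _s_at or _x_at, the array maker's mark for probes that can match more than 1 transcript. They are the called probe sets of Mcm3, Mcm5 and Mcm7 and the brightest of Rrm2. No probe set of Mcm3, Mcm5 or Mcm7 without this mark was called, whereas Rrm2 was also called on 1 without it.

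None of the factors that load or start the helicase was called. Mcm10, with a log2 ratio of 0.50 ± 0.29, had 0.96 in set 1 and 0.05 in set 2. Cdc45 had 0.15 and 0.66 in the 2 sets, and Gins1 had 0.29 and 0.53. Gins2, in the same 4-protein GINS complex as Gins1, read 3094 and 2402 in the null pools and 3185 and 3449 in the wild-type pools. Its log2 ratio of -0.28 ± 0.16 was the lowest of the 35 genes, and its second probe set gave -0.26 ± 0.21, neither called. Of the origin recognition complex, Orc6 had 0.07 ± 0.16 and Orc1 had -0.08 in set 1 and 0.66 in set 2.

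**Figure D3:**
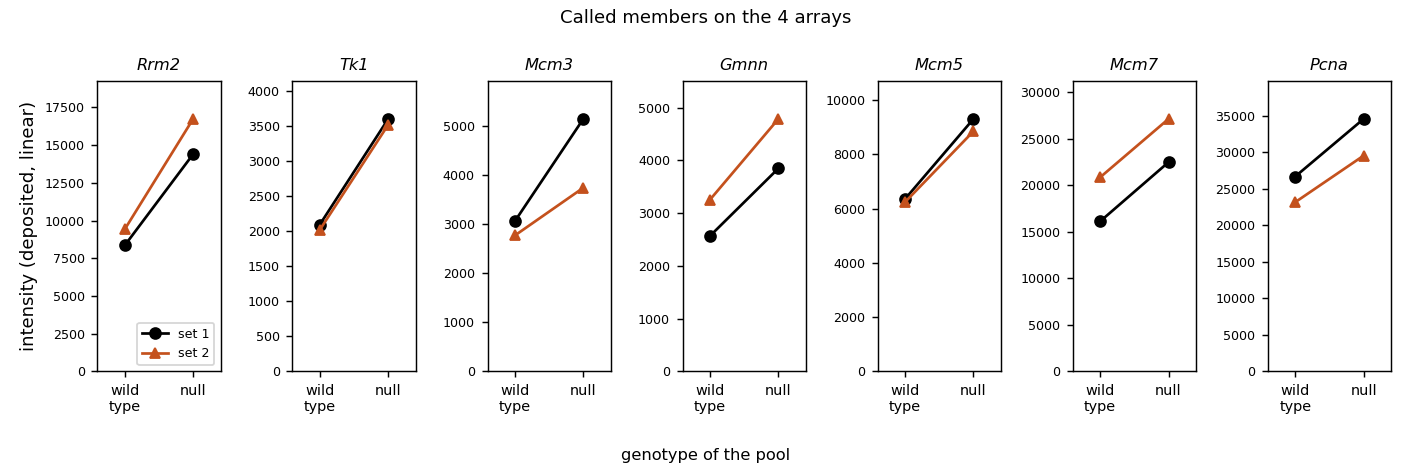
Deposited linear intensity (y axis, from 0) of the 7 called replication genes in the wild-type and null pools (x axis), with 1 line for each set. In each panel both null values lie above both wild-type values; panels have separate scales and are not to be compared with each other.

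Nucleotide supply held the gene with the smallest adjusted p, Rrm2. Of its 4 tested genes 2 rose, beside 5.17% of all genes tested, and the median log2 ratio was 0.56. Rrm2 encodes the small subunit of ribonucleotide reductase, the enzyme that makes deoxyribonucleotides and whose small subunit is made mainly in S phase. It read 14406 and 16743 in the null pools and 8353 and 9421 in the wild-type pools. Both null pools stood well above both wild-type pools. The rise was 1.75-fold (log2 0.80 ± 0.09, limma adjusted p = 3.34e-05). A second probe set read 6119 and 6340 against 3794 and 3315, again without overlap and again 1.75-fold higher (log2 0.80 ± 0.12, limma adjusted p = 0.000596). The third read 3802 and 3841 against 3380 and 2400, with a log2 ratio of 0.42 ± 0.15 that was not called.

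Tk1, the thymidine kinase of the salvage pathway, read 3608 and 3525 in the null pools and 2098 and 2023 in the wild-type pools. Pools of the same genotype nearly coincided. Tk1 rose 1.72-fold (log2 0.78 ± 0.15, limma adjusted p = 0.00507), with 0.77 in set 1 and 0.79 in set 2. Rrm1, the large subunit of ribonucleotide reductase, read 8085 and 7590 in the null pools and 6025 and 6306 in the wild-type pools. These did not overlap either, and the log2 ratio of 0.34 ± 0.10 had a limma adjusted p of 0.0579. Dut, the dUTPase that keeps uracil out of DNA, had 0.16 ± 0.12. Tyms, which makes thymidylate, could not be judged: all 4 of its probe sets read between 7.88 and 409, within the unspecific level.

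At the replication fork 1 of 9 genes rose (11.1%, beside 5.17% of all genes tested). The median log2 ratio was 0.16, with 0.33 in set 1 and 0.048 in set 2. The gene that rose was Pcna, the sliding clamp. It read 34546 and 29521 in the null pools and 26663 and 23149 in the wild-type pools. The groups did not overlap. Pcna rose 1.28-fold (log2 0.36 ± 0.08, limma adjusted p = 0.0132), with nearly the same ratio in both sets, 0.37 and 0.35.

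Prim1, the catalytic subunit of primase, gave different answers on its 2 probe sets. The brighter read 4444 and 3277 in the null pools and 3541 and 3386 in the wild-type pools, so the groups overlapped, and its log2 ratio was 0.14 ± 0.14. The dimmer read 4342 and 4896 against 2637 and 3024, without overlap. Its log2 ratio of 0.70 ± 0.13, or 1.62-fold, had a limma adjusted p of 0.00375.

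The clamp loader subunits Rfc3, Rfc4 and Rfc5 had log2 ratios of -0.13 ± 0.16, 0.18 ± 0.12 and 0.32 ± 0.11. For Rfc3 the 2 probe sets had opposite signs, with 0.29 ± 0.18 on the dimmer. Pola1, the catalytic subunit of polymerase alpha, had 0.35 ± 0.20, with 0.58 in set 1 and 0.11 in set 2. Fitted without the set term, its ratio was 0.0043 without the first wild-type array and 0.69 without the second. In such fits the difference between the sets, 0.45 ± 0.20 for Pola1, enters the ratio. They thus do not show the weight of a single array. Pole2, a subunit of polymerase epsilon, read 3030 and 2772 in the null pools and 2402 and 2922 in the wild-type ones. Fen1, the flap nuclease, read 7694 and 8144 in the null pools and 5802 and 8691 in the wild-type ones. For both genes the second wild-type pool exceeded the null pool of that set, and their log2 ratios were 0.13 ± 0.16 and 0.16 ± 0.12. The second probe set of Fen1 had ratios above 0 in both sets, 0.24 and 0.32. Lig1, which joins Okazaki fragments, had 0.16 ± 0.12.

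None of the 4 G1/S regulators was called on its brightest probe set, and their median log2 ratio was 0.49. Ccne1 and Ccne2 encode the E-type cyclins that activate CDK2. On its brighter probe set Ccne1 read 1384 and 2273 in the null pools and 854 and 1421 in the wild-type pools. Within each set the null pool was higher, by 0.67 and 0.66 on the log2 scale, but the wild-type pool of set 2 exceeded the null pool of set 1. Its limma adjusted p was 0.086. The dimmer probe set of Ccne1 read 600 and 1152 in the null pools and 741 and 721 in the wild-type pools. There the log2 ratio was -0.29 in set 1 and 0.64 in set 2, which gave 0.18 ± 0.32, not called. Ccne2 had 0.89 in set 1 and 0.13 in set 2.

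E2f1, an activating E2F factor, read 1081 and 627 in the null pools and 828 and 579 in the wild-type pools on its brighter probe set, which gave a log2 ratio of 0.24 ± 0.30. The dimmer read 971 and 1081 in the null pools and 585 and 239 in the wild-type pools. Its wild-type value in set 2 lies within the unspecific level and that in set 1 barely above it, so the log2 ratio of 1.34 ± 0.37 (limma adjusted p = 0.0386) rests in part on a value not told from that level. E2f8, an atypical E2F that represses transcription, had 0.48 ± 0.31, with 0.08 in set 1 and 0.87 in set 2, where its wild-type value was 608, also barely above that level.

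Of the chromatin and repair genes 0 of 3 were called, with a median of 0.44. Chaf1b, a subunit of the CAF-1 histone chaperone, read 2713 and 2312 in the null pools and 2010 and 1960 in the wild-type pools. The groups did not overlap, and the log2 ratio was 0.33 ± 0.17. Uhrf1, which brings DNA methyltransferase to newly copied DNA, read 2019 and 3626 in the null pools and 1906 and 1972 in the wild-type ones, so nearly all of its ratio of 0.47 ± 0.20 came from set 2. Brca1, which acts in homologous recombination, had 0.44 ± 0.25 on its brighter probe set. Its other tested probe set had -0.32 ± 0.33 and read from 543 to 836, close to the unspecific level.

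Over all tested probe sets, rather than the brightest of each gene, 11 of 58 were called higher (against 4.09% of all probe sets tested) and 0 lower (against 3.27%). An unadjusted limma p under 0.05 was found for 26 of the 58, beside 4620 of all 22519 tested. Ratios were above 0 in both sets for 46 of the 58. The share over all probe sets tested was not counted, and by brightest probe set it was 31.6% of all genes tested. The 11 belong to 10 genes, the 7 above and Mcm4, Prim1 and E2f1. With the tested probe sets of a gene averaged instead, 9 genes were called: Mcm3 was lost, and Cdc6, Mcm4 and Prim1 were gained. Of the 58 tested probe sets, 54 read above the unspecific level on all 4 arrays. Of the 22 not tested, 20 lay within that level on every array.

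The sets of pools were compared in the same fit. Set 2 was higher than set 1 for Ccne1, Lig1 and Mcm7 (against 14.6% of all genes tested) and lower for the brighter probe set of Mcm2 (against 8.40%), 4 of 35 in all, with a median log2 difference of -0.013. With no filter on dim probe sets the count was 2. Lig1 had the smallest limma adjusted p of these, 0.011, for a log2 difference of 0.47 ± 0.12. The signal ratio of the 3' over the 5' probe sets of Gapdh, which rises with degraded RNA, was 0.873 and 0.869 in the null and wild-type pools of set 1 and 2.13 and 1.57 in set 2. For actin this ratio was 1.53 and 1.63 in set 1 and 2.12 and 1.96 in set 2. In set 2 both ratios were thus higher in the null pool. The part of RNA quality in the differences between sets, or between genotypes, was not tested.

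Other genes of the same processes were counted in the same way, and the difference between the lists was not tested. Of 81 further S phase genes, listed by role, 74 were tested, 9 rose (12.2%, beside 5.17% of all genes tested) and 1 fell (1.35%, beside 3.54%), and the median log2 ratio was 0.13 (0.095 in set 1 and 0.18 in set 2). By role, 2 of 17 licensing, firing and checkpoint genes, 1 of 22 fork genes (4.55%, below the share of all genes), 1 of 8 nucleotide supply genes and 5 of 27 G1/S regulators rose. Without the set term or without the intensity trend, 0 of the 74 were called in either direction.

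The licensing and checkpoint genes that rose were Timeless and Tipin, partners that protect stalled forks, at 1.82-fold and 1.38-fold. Timeless had a second probe set with a log2 ratio of -0.01. At the fork Dnmt1, the maintenance DNA methyltransferase, rose 1.33-fold on its brightest probe set, while its 2 others had log2 ratios of -0.04 and 0.18. In nucleotide supply Cad, which starts pyrimidine synthesis, rose 1.52-fold, and its other probe set had 0.19. None of these other probe sets was called. For the brightest ones the limma adjusted p values ran from 0.0204 to 0.0423.

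Among the G1/S regulators, Ccna2, the cyclin of S phase and G2, read 6388 and 7488 in the null pools and 4633 and 4724 in the wild-type pools. It rose 1.47-fold (limma adjusted p = 0.00546). Of the D-type cyclins, which start the phosphorylation of the retinoblastoma protein, Ccnd1 rose 1.46-fold and Ccnd2 1.62-fold, while Ccnd3 had a log2 ratio of 0.03 and was not called. For Ccna2, Ccnd1 and Ccnd2 both null pools exceeded both wild-type pools. Other tested probe sets of Ccnd2 had log2 ratios from 0.05 to 0.78, with 2 of 5 called, and those of Ccnd1 0.25 and 0.36, with 1 of 2 called. The second probe set of Ccna2 had 0.28 and was not called. The CDK inhibitors Cdkn2b and Cdkn1a, which restrain entry into S phase, rose 1.9-fold and 1.29-fold. Rb1, the retinoblastoma protein that holds E2F factors in check, was the gene that fell, from 48940 and 46183 in the wild-type pools to 37598 and 34381 in the null pools. Its log2 ratio was -0.40 ± 0.08, with a limma adjusted p of 0.00705.

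Of 29 mitosis genes tested 10 rose (34.5%, beside 5.17% of all genes tested) and 0 fell, with a median log2 ratio of 0.52. Mki67, the proliferation marker, read 10016 and 12554 in the null pools and 6660 and 6304 in the wild-type pools and rose 1.73-fold. Top2a, the topoisomerase that untangles sister chromatids, rose 1.67-fold, and Cdc20, an activator of the anaphase-promoting complex, rose 1.62-fold. Nusap1, Ube2c, Mad2l1, Ccnb2 and Birc5 rose by 1.45-fold to 1.53-fold. Of these mitosis genes 1 of 26 with a window (3.85%) had an E2F-type word in it, beside 20 of 62 of the further S phase genes (32.3%), while 19 of the 26 (73.1%) had a CCAAT box.

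**Figure D4:**
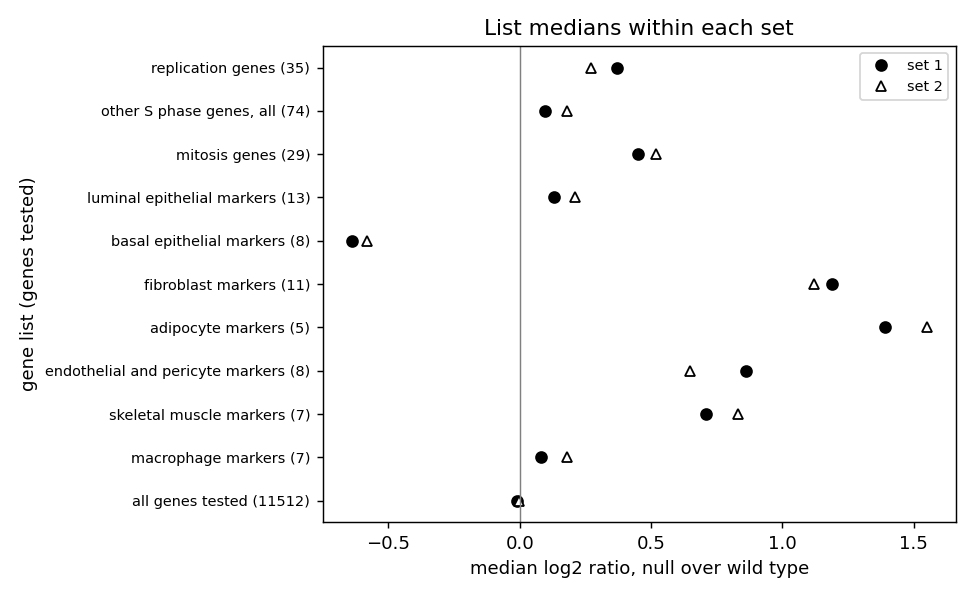
Median log2 ratio of null over wild type (x axis) in each set, for each gene list (y axis, with the number of genes tested). The replication genes lie at 0.37 and 0.27, below the fibroblast list at 1.19 and 1.12 and above all genes tested, at -0.011 and -0.0022.

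The tumors were mixtures of cells, and markers of other cell types moved with genotype. In bulk RNA, more cells of a type and more RNA per cell cannot be told apart. All 11 fibroblast markers rose, with a median log2 ratio of 1.11, and their summed intensity was 404379 and 466399 in the null pools and 194792 and 214299 in the wild-type pools. Of the adipocyte markers 4 of 5 tested rose (median 1.41), of the endothelial and pericyte markers 4 of 8 (0.76), and of the skeletal muscle markers 3 of 7 (0.87). The counts in this paragraph stand beside 5.17% of all genes tested higher and 3.54% lower. Luminal epithelial markers, 3 of 13 higher, had a median of 0.20 and split in direction. Ratios were above 0 in both sets for 7 of the 13, among them Krt8, which read between 101213 and 150715. The other 6, Epcam, Cdh1, Elf5, Esr1, Muc1 and Cldn3, had ratios below 0 in both sets, none of them called. The summed intensity of the luminal markers was 565008 and 585722 in the null and 544298 and 510770 in the wild-type pools. Of the basal epithelial markers 4 of 8 fell (median -0.48), and their sum was 110934 and 129801 in the null and 144536 and 159709 in the wild-type pools. Macrophage markers had 1 of 7 higher and 1 lower, milk genes 1 of 4 higher and 1 lower, and of the lymphocyte markers only Cd8a was tested, with a log2 ratio of 1.01 that was not called. The part of these cell types in the replication genes was not tested.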

How the data were processed

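As deposited, the values were intensities on a linear scale, made with MAS5 per the submitters' processing notes (version not given in the sources used here). Their mean after trimming 2% at each end was 2500.01 on all 4 arrays, so no further scaling was applied. Control probe sets (64) were left out. Intensities became log2(value + 44), 44 being the 10th percentile, which understates changes of dim transcripts. Only probe sets with a mean log2 value at or above the median (an intensity of 562) entered the test, 22519 in all. The model was limma 3.58.1 (R 4.3.3) with set and genotype as terms, an intensity trend, and p-values adjusted by Benjamini-Hochberg across these 22519, called at 0.05. The pairing comes from the series' design text; arrays of a set deviated from their group means together (r = 0.612), a value fixed to be equal for both. A gene was taken by its brightest tested probe set. The script was tested on simulated data with independent noise of this fit's own spread, which checks the code and not the calls made here.

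The members, the other gene lists and the tests were chosen with earlier results of these data known. The naming rule took every called member, members whose sets or probe sets disagreed, up to 8 called genes of each other cell cycle list, and the promoters of up to 6 called members. Remaining members were named to account for all of them. Other settings tried were quantile or cyclic loess normalization, other pseudocounts and filters, no set term, no intensity trend, averaged probe sets, each array left out and each set alone. Nothing in the labels gives a hybridization batch beyond the sets, and the precision is limited by the number of arrays.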

Additional observations from a re-analysis of the deposited data

How the results depend on the processing

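Counts of 7 replication genes higher and 0 lower held under quantile and cyclic loess normalization, a pseudocount of 1 and no filter, each with the same 7 genes. A pseudocount of 176 added Cdc6 (8 genes), a filter at the 75th percentile added Rrm1 (8), and averaged probe sets gave 9. With no replicate block, that is without the pairing by set, 0 replication genes were called higher, and 0 of the other S phase genes higher and 0 lower. Without the intensity trend these counts were also 0, 0 and 0, and 0 replication genes differed between the sets. Unadjusted, 1261 probe sets passed p under 0.05 in limma without the block and 3512 without the trend, among them 6 and 11 of the replication genes' brightest. With each array left out in turn, fitted without the set term because 3 arrays leave no residual degree of freedom with it (a step that alone gives 0 calls), the counts ran from 0 to 0 for replication genes higher, for other S phase genes higher and for those lower. The median log2 ratio of the replication genes was 0.27 with the 75th percentile filter, which kept 20 genes, 0.27 in set 2 alone, and from 0.29 to 0.43 with an array left out. Averaged probe sets called 3 other S phase genes lower and 1 replication gene between the sets, and no filter 2 between the sets. Signs turned for Mcm2 (0.19) and Rfc3 (0.079) with averaged probe sets. With an array left out, ratios ran from -0.88 to 0.83 for Mcm2, -0.31 to 0.047 for Rfc3, -0.13 to 0.76 for E2f1, -0.078 to 0.80 for Prim1, -0.13 to 0.45 for Fen1, -0.15 to 0.46 for Lig1 and -0.012 to 0.27 for Pole2. With an array left out and no set term, a gene's difference between the sets also enters its ratio. Such ratios do not show the weight of a single array. Other causes of these changes were not tested. Without detection calls, signal near the unspecific level of 565 limits Tyms, Cdc6, E2f1, E2f8, Orc1, Brca1 and the dimmest tested probe sets of Mcm3.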
